A study of Mus musculus with 16 samples.

Results

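The genes described here are 10 markers of brain endothelial cells and of the blood-brain barrier, read in the hypothalamus of young mice raised by well-fed or food-restricted mothers. They were chosen by name, as Cldn5, Pecam1, Slc2a1, Abcb1a, Flt1, Kdr, Tek, Cdh5, Esam and Ly6c1, and every probe annotated to one of these symbols was taken. Of the 10 genes, 9 had a named probe among the 16593 genes with one, and 7 passed the detection filter that left 10244 genes for testing. Cldn5, which encodes the main claudin of the barrier's tight junctions, had no named probe and was not analysed here.

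Endothelial cells of brain capillaries form a barrier because tight and adherens junctions seal the gaps between them, so that nutrients must enter through carriers and many drugs are pumped back into the blood. Vascular endothelial growth factors act on these cells through the receptors Flt1 and Kdr, and angiopoietins act through Tek. In parts of the hypothalamus that sense blood-borne signals the capillaries are instead fenestrated and leaky.

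Hypothalamic RNA of 16 female F1 mice of strain C57BL/6J, aged 21 days, was hybridized to Illumina MouseRef-8 v2 arrays, 1 mouse to an array. Mothers of the 8 control mice (CON) ate ad libitum, and mothers of the 8 mice with lactation undernutrition (LUN) received 50% of what control mothers had eaten over the preceding day, from birth of the pups to weaning, with litters of 8 pups in both groups. The question of the comparison was how this early undernutrition affected hypothalamic transcripts. Mice were treated as independent, but no source used here says which litter a mouse came from. The study took its F1 data from 4 CON and 8 LUN litters. Litter mates must therefore be among the 8 CON mice and may be among the LUN mice, and P values that ignore this can be too small. The arrays lay on 2 BeadChips with 4 CON and 4 LUN arrays on each, CON first and LUN last, and thus an effect of array position and one of the group cannot be told apart.

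Values below are background-corrected, quantile-normalized log2 intensities, differences are LUN minus CON on that scale, and a gene is said to rise or fall only if its P adjusted over all tested probes was under 0.05 in limma. Because the tissue was analysed whole, fewer endothelial cells and less RNA per cell cannot be told apart. The unnormalized mean signal per array was higher in CON (451 ± 35.2, SD, n = 8) than in LUN (377 ± 23.6, SD, n = 8; two-sided exact permutation P = 0.0004662), so results are also given under other scalings. The reference gene Hprt had a mean of 12.27 in CON and 12.22 in LUN (difference -0.05, SE 0.04, adjusted P = 0.366, limma). Of 9 tested genes typical of the hypothalamus, 7 fell and 0 rose (median -0.69), Oxt and Cartpt among them by 0.89 and 0.78. Pomc, also among the 7, was detected on all 8 CON arrays and on 0 LUN arrays, so it passed the detection filter through CON alone. All 7 genes typical of the neighbouring thalamus rose (median 1.06), with Prkcd higher by 1.78, Gbx2 by 1.51 and Tcf7l2 by 1.20. The thalamic level, a mean deviation of the list's genes from their mean over the 16 arrays, was 0.71 in CON 4 and 0.27 in CON 8, against -1.17 to -0.41 in the other CON arrays and 0.29 to 0.76 in LUN. The hypothalamic level was -0.17 and -0.15 in these 2 arrays, against 0.26 to 0.56 in the other CON arrays and -0.53 to -0.03 in LUN. CON 4 and CON 8 thus stood near the LUN arrays in both, and the main results are also given without them. Since they were picked for standing near LUN, leaving them out can widen a group difference and is no independent check. The part of dissection in the changes below was not tested.

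Of the 7 tested endothelial genes, 1 rose, 1 fell and 5 did not pass the test. Slc2a1 fell and Tek rose, the latter only under quantile normalization among the 3 scalings compared. Over all tested genes 7.17% rose and 8.59% fell, so a count of 1 of 7 in each direction is within a single gene of that background. No tested gene of the 7 passed the adjusted P together with a 1.5-fold change, which 1.39% of all tested genes did, and none had CON and LUN values that did not overlap, which 2.25% of all tested genes had. Differences ran from -0.33 to 0.20 with a median of -0.05, against a median of -0.01 over all tested genes, and 4 were below 0 and 3 above. Endothelial transcripts thus lay on both sides of 0 under quantile normalization.

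**Figure D1:**
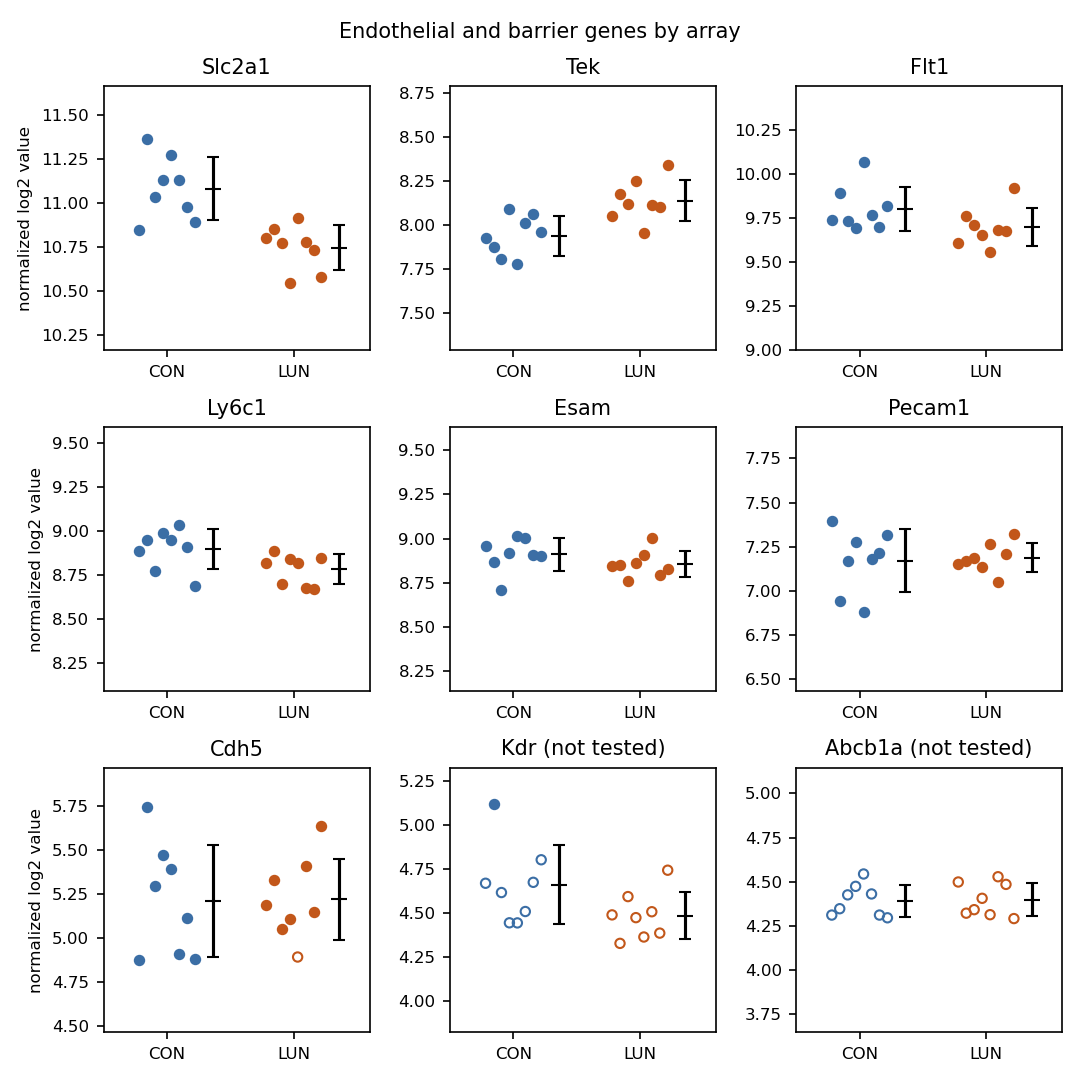
Normalized log2 values (y axis, every panel spanning the same range) of the 9 endothelial and barrier genes with a probe, in 8 CON and 8 LUN arrays. Each point is an array, open where the probe was not detected, and bars give mean ± SD; the Slc2a1 values of 6 LUN arrays lie below all CON arrays and the Tek values of 6 LUN arrays lie above them.

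The gene with the largest difference was Slc2a1 (probe for NM_011400), which encodes GLUT1, the carrier that brings glucose across the barrier and is also made by astrocytes. In CON arrays 1 to 8 its value was 10.85, 11.36, 11.03, 11.13, 11.27, 11.13, 10.98 and 10.89, and in LUN arrays 1 to 8 it was 10.80, 10.85, 10.77, 10.55, 10.92, 10.78, 10.73 and 10.58. All 8 LUN arrays were below the CON median of 11.08 and 6 were below the lowest CON array, while CON 1 and CON 8 lay within the LUN range. Slc2a1 fell by 0.33 (SE 0.08, 95% interval -0.49 to -0.18), from 11.08 ± 0.18 to 10.75 ± 0.13 (SD, n = 8 each), a 1.26-fold difference with an adjusted P of 0.00703 in limma. The difference was -0.35 on BeadChip 1 and -0.32 on BeadChip 2, and neither BeadChip alone, with 4 arrays a group, gave a call (adjusted P = 0.180 and 0.138, limma). Without CON 4 and CON 8 it was -0.36 (adjusted P = 0.00589, limma). In the unnormalized signals the groups did not overlap. CON arrays lay between 2072 and 2754 (median 2429.8) and LUN arrays between 1329 and 1879 (median 1524). LUN arrays were dimmer as a whole, and without normalization 60.1% of all tested genes were lower in LUN past the adjusted P. The share of all genes without overlap in unnormalized signals was not counted.

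Slc2a1 was also set against the other endothelial genes on the same array. Its value minus that of Tek, each centred on its CON mean, ran from -0.22 to 0.35 in CON and from -0.90 to -0.18 in LUN, and 7 LUN arrays were below every CON array. The mean shift of this within-array difference was -0.53 against Tek and between -0.35 and -0.22 against the other 5 genes. Against those, fewer LUN arrays were below every CON array, 5 for Cdh5, 4 for Flt1, 3 for Esam and 2 each for Pecam1 and Ly6c1. Such a difference shows unequal change and not which gene moved. Of 8 tested astrocyte genes 3 fell (Aqp4 by 0.62, Gfap by 0.57 and Aldh1l1 by 0.26) and Slc1a3, a glutamate transporter of astrocytes, rose by 0.22 (median of the 8 genes -0.11). Slc1a3 was at 0.11 under median scaling (adjusted P = 0.160, limma) and at -0.05 without normalization, where the median over all tested genes was -0.26. The astrocyte level ran from -0.00 to 0.19 in CON and from -0.17 to 0.02 in LUN, all 8 genes were detected, and the part of astrocytes in the Slc2a1 difference was not tested.

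Tek (probe for NM_013690), the endothelial receptor for angiopoietins, had values of 7.93, 7.87, 7.81, 8.09, 7.78, 8.01, 8.06 and 7.96 in CON arrays 1 to 8 and of 8.05, 8.18, 8.12, 8.25, 7.96, 8.11, 8.10 and 8.34 in LUN arrays 1 to 8. All 8 LUN arrays were above the CON median of 7.94, 6 were above the highest CON array, and LUN 1 and LUN 5 lay within the CON range. Tek rose by 0.20 (SE 0.06, 95% interval 0.07 to 0.33), from 7.94 ± 0.11 to 8.14 ± 0.12 (SD, n = 8 each), a 1.15-fold difference with an adjusted P of 0.0318 in limma. It was higher by 0.22 on BeadChip 1 and by 0.17 on BeadChip 2. This call was weak: leaving out any 1 of CON 1, CON 2, CON 3, CON 5, LUN 2, LUN 4 or LUN 8 ended it, with adjusted P up to 0.0649 (limma). Without CON 4, the highest CON array for Tek, and CON 8, the difference was 0.23 (adjusted P = 0.0195, limma). The unnormalized signals of Tek overlapped, with 262 to 353 (median 325) in CON and 259.9 to 335 (median 292) in LUN.

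The sequences around the annotated starts of these called genes are given here, with that of Flt1 for comparison, since Slc2a1 and Tek are the genes past the test. Each is a RefSeq window of 300 bases on build GRCm38.p6, from 250 bases before the start to 50 after it, and a window was found for 7 of the 10 genes. Capitals mark matches on either strand to GGAAG or to ACGTG, the core of hypoxia response elements. GGAAG is the core bound by ETS factors together with its flank, and these factors are known regulators of endothelial genes. The ETS core without this flank was not searched for. The windows lie at chr4:119108495-119108794 (Slc2a1, plus strand), chr4:94739039-94739338 (Tek, plus strand) and chr5:147725962-147726261 (Flt1, minus strand).
Slc2a1: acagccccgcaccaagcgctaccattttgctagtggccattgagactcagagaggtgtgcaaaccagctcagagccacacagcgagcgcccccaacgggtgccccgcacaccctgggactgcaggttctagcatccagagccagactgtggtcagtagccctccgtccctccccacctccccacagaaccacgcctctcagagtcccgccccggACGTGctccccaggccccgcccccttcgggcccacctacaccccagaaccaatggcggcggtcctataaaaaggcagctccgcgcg
Tek: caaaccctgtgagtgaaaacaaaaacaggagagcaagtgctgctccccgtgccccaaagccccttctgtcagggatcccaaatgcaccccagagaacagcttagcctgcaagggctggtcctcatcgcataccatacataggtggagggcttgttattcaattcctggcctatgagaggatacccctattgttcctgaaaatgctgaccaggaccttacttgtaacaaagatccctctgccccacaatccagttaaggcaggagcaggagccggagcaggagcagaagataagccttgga
Flt1: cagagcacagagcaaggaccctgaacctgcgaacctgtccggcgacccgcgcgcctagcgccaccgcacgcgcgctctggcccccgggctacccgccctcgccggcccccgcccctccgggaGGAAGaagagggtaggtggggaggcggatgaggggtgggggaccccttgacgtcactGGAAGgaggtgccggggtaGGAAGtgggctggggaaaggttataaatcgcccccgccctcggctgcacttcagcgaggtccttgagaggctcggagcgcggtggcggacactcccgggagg
The Slc2a1 window held 1 ACGTG, 36 bases before the start, and 0 GGAAG. The Tek window held 0 of either motif, and the Flt1 window held 3 GGAAG, at 128, 71 and 52 bases before the start. Of 32851 such windows, 71.4% held GGAAG and 19.6% held ACGTG, so these matches describe the letters and nothing more. A match is not a bound site.

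Of the other growth factor receptors, Flt1 did not pass and Kdr was not tested. Flt1, a receptor for Vegfa and Vegfb, was read by a probe with values from 9.69 to 10.07 in CON (median 9.75) and from 9.56 to 9.92 in LUN (median 9.68). The 5 lowest LUN arrays were below every CON array, the highest value was that of CON 5, and the mean difference was -0.10 (SE 0.06, 95% interval -0.23 to 0.02, adjusted P = 0.264, limma). A second Flt1 probe was not detected on any array. Kdr, the main signalling receptor for Vegfa, was detected on CON 2 alone. Its means of 4.66 ± 0.22 in CON and 4.49 ± 0.14 in LUN (SD, n = 8 each, two-sided exact permutation P = 0.0710) are therefore both near background, and no fold is given.

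The junction and adhesion genes lay close to 0. Esam, an immunoglobulin-type adhesion molecule of endothelial cells, ran from 8.71 to 9.02 in CON (median 8.91), every LUN array lay within that range (lowest 8.76, median 8.85), and its difference was -0.05 (SE 0.05, 95% interval -0.16 to 0.05, adjusted P = 0.501, limma). Pecam1, an adhesion molecule at endothelial contacts, ran from 6.88 to 7.40 in CON and from 7.05 to 7.32 in LUN by its brighter probe, again with the LUN arrays inside the CON range, and differed by 0.02 (SE 0.07, 95% interval -0.13 to 0.16, adjusted P = 0.915, limma). Its second probe (NM_001032378) differed by -0.03 (adjusted P = 0.843, limma). The 2 probes did not follow each other from array to array, with r = -0.53 over 16 arrays after the group means were taken off and -0.34 without CON 2, so the level of Pecam1 in a single mouse is uncertain here. Cdh5, the cadherin of endothelial adherens junctions, was dim and spread widely, from 4.87 to 5.74 in CON and from 4.89 to 5.63 in LUN, where 7 of 8 arrays detected it. Its difference of 0.01 (SE 0.13, 95% interval -0.26 to 0.28, adjusted P = 0.973, limma) had the widest interval of the 7, and it was -0.18 on BeadChip 1 and 0.20 on BeadChip 2.

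Ly6c1, a surface antigen of brain capillaries, had values from 8.69 to 9.03 in CON (median 8.93) and from 8.67 to 8.89 in LUN (median 8.82). All 8 LUN arrays were below the CON median and 6 CON arrays were above every LUN array, yet the difference of -0.11 (SE 0.05, 95% interval -0.23 to 0.00, adjusted P = 0.175, limma) did not pass. Ly6c1 has a near-identical neighbour, Ly6c2, and this probe may read both. Abcb1a, the drug efflux pump P-glycoprotein, was detected on 0 arrays, with means of 4.39 in CON and 4.40 in LUN, and no fold is given. Its close relative Abcb1b was tested and differed by 0.02 (adjusted P = 0.897, limma).

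Scaling decided how many of these genes were called. Under scaling of each array to a common median, the median difference over all tested genes was -0.10, and without normalization between arrays it was -0.26. Under either, 4 of the 7 genes were lower past the adjusted P (Slc2a1, Flt1, Ly6c1 and Esam) and 0 were higher. Over all tested genes 28.3% were lower and 3.42% higher under median scaling, and 60.1% were lower and 1.19% higher without normalization, so the count of 4 of 7 without normalization is near its background. Relative to the shift of all genes under median scaling, Slc2a1 was at -0.36, Flt1 at -0.14, Ly6c1 at -0.14, Esam at -0.08, Pecam1 at 0.02, Cdh5 at 0.13 and Tek at 0.18. Tek itself was at 0.07 under median scaling (adjusted P = 0.404, limma) and at -0.08 without normalization (adjusted P = 0.435, limma), so its sign depends on the scaling. Relative to the shift of all genes Tek was at 0.18 under either, since these scalings differ only by a shift of whole arrays. Slc2a1, Flt1, Ly6c1 and Esam were below 0 under all 3 scalings.

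**Figure D2:**
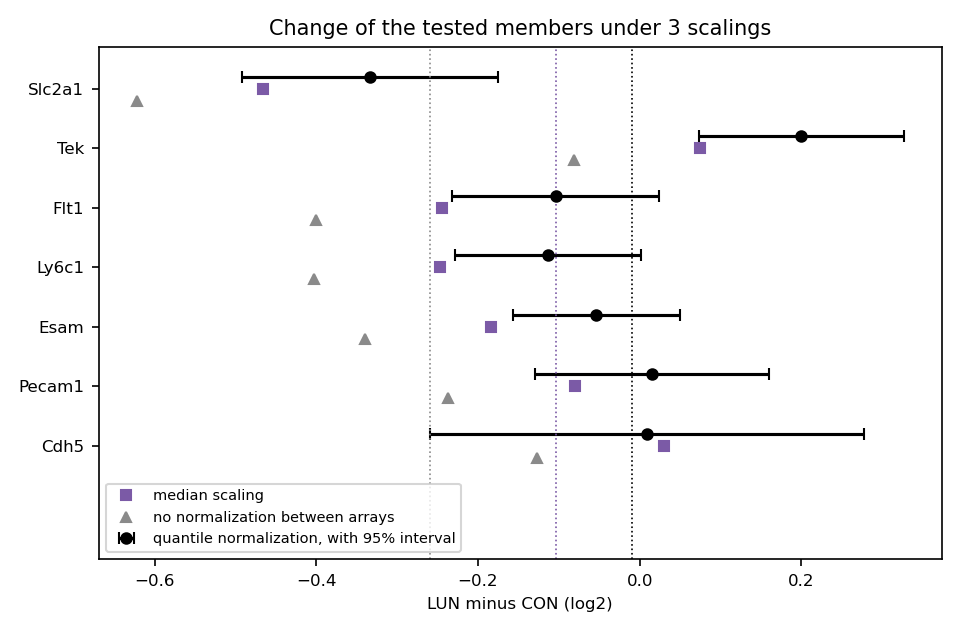
LUN minus CON (log2, x axis) of the 7 tested genes (y axis) with quantile normalization (circles, bars are 95% intervals), median scaling (squares) and no normalization between arrays (triangles); dotted lines give the median of all tested genes under each. Slc2a1, Flt1, Ly6c1 and Esam lie below 0 under all 3 scalings, whereas Tek moves from 0.20 to 0.07 and -0.08.

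Among mice of 1 group the tested genes correlated in both directions. Of their 21 pairs, the median Pearson r over 8 arrays was 0.11 in CON (range -0.89 to 0.83) and 0.14 in LUN (range -0.84 to 0.84), and 9 pairs had the same sign in both groups. Slc2a1 and Cdh5 had r = 0.83 in CON and -0.43 in LUN, Slc2a1 and Pecam1 -0.89 and -0.08, Slc2a1 and Tek -0.31 and -0.84, and Flt1 and Tek -0.69 and 0.84. With 8 arrays a group that share a normalization, these coefficients are descriptions and no difference between the groups was tested.

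**Figure D3:**
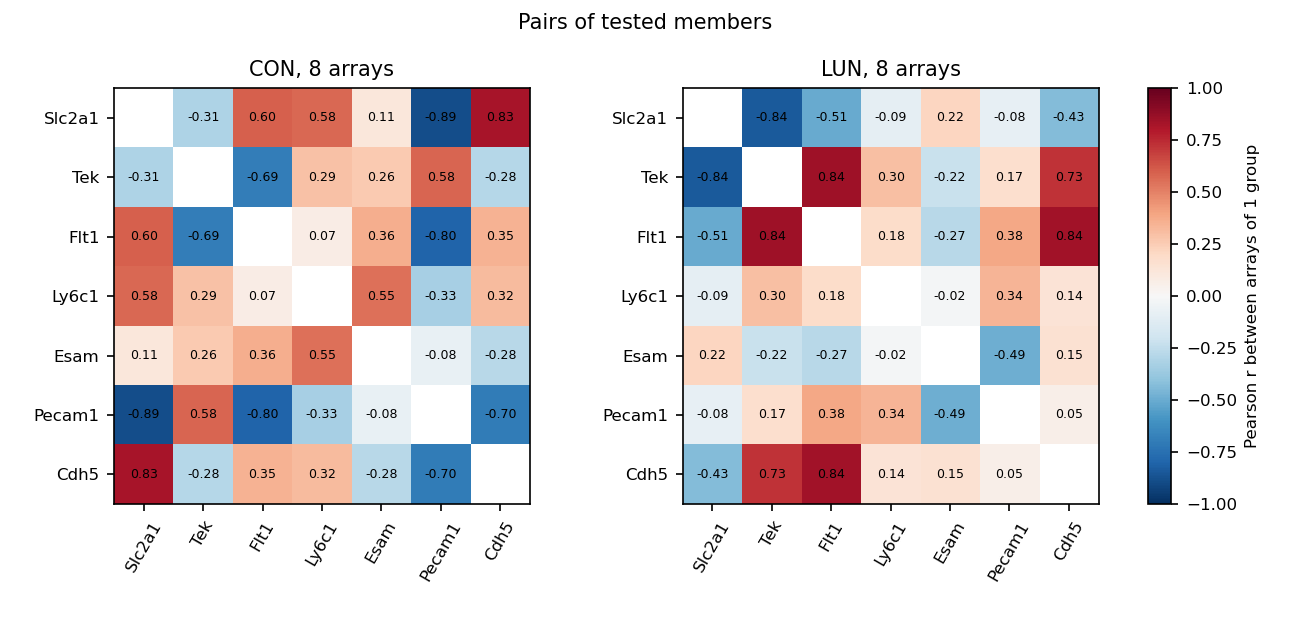
Pearson r between each pair of the 7 tested genes over the 8 CON arrays (left) and the 8 LUN arrays (right), coloured from -1 (blue) to 1 (red). Coefficients of both signs occur in each group, and 9 of 21 pairs have the same sign in both.

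The genes whose pattern was most like the mean of the 7, by r over 16 arrays with group means taken off, were Aoc3 (0.80), an amine oxidase of vascular cells, Bnip3l (0.79), Pglyrp1 (0.75), Dynlrb1 (0.74) and Col4a1 (0.74), a chain of basement membrane collagen. Of these Col4a1 fell by 0.24 (adjusted P = 0.00420, limma) and the other 4 did not pass. Of the 10 tested genes of pericytes and smooth muscle, the closest was Acta2 at place 31 (0.67) and the farthest Rgs5 at place 8370 (-0.22). The 20 tested genes of the list of other endothelial genes ran from Ramp2 at place 111 (0.57) to Egfl7 at place 9509 (-0.36). The mean of the 7 thus did not track endothelial genes as a set. Pairs of the 7 had a median r of 0.11 with group means taken off. The genes named first are the highest among all tested genes over 16 arrays, so their likeness is a description only.

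Among 15 ligands, co-receptors and partners of the VEGF and angiopoietin receptors, 11 were tested, 1 rose and 2 fell (median -0.08). Vegfc, a ligand chiefly of the lymphatic receptor Flt4, ran from 5.83 to 6.21 in CON (median 5.99) and from 6.33 to 6.66 in LUN (median 6.39), and the groups did not overlap. It rose by 0.44 (SE 0.07, adjusted P = 0.000934, limma), and also relative to all genes under median scaling, by 0.48. Vegfb, a ligand of Flt1, ran from 10.61 to 10.81 in CON (median 10.74) and from 10.35 to 10.55 in LUN (median 10.46), again without overlap, and fell by 0.27 (SE 0.04, adjusted P = 0.000921, limma). Notch4, a Notch receptor of endothelial cells, fell by 0.19 (SE 0.04, adjusted P = 0.00608, limma), with values between 8.42 and 8.65 in CON and between 8.26 and 8.36 in LUN. A second, dimmer Notch4 probe differed by -0.08 (adjusted P = 0.662, limma). The brightest Vegfa probe differed by -0.11 (adjusted P = 0.149, limma) and did not pass. A dimmer one lay in the same direction, at -0.30 (adjusted P = 0.00169, limma), and passed.

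Other carriers and receptors of the barrier moved both ways, with 3 of 10 tested genes rising and 1 falling (16 listed, median 0.03). Slco1a4, an organic anion carrier of brain endothelium, ran from 6.74 to 7.75 in CON and from 7.60 to 7.88 in LUN, where 5 arrays were above every CON array, and rose by 0.47 (SE 0.11, adjusted P = 0.00924, limma). Slc3a2 and Slc7a5, which pair to form the large neutral amino acid carrier, went apart. Slc3a2 rose by 0.33 (SE 0.09, adjusted P = 0.0240, limma), although its adjusted P was 0.0544 under median scaling, whereas Slc7a5 fell by 0.16 (SE 0.05, adjusted P = 0.0232, limma). Slco1c1, a thyroxine carrier, rose by 0.20 (adjusted P = 0.0346, limma) but lay at -0.09 without normalization, where the median over all tested genes was -0.26.

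Of 14 junction partners 8 were tested, 2 rose and 0 fell (median 0.10). Cldn12, a claudin, rose by 0.27 (SE 0.08, adjusted P = 0.0230, limma) and Ctnnb1, which encodes beta-catenin, by 0.23 (SE 0.06, adjusted P = 0.00958, limma). Without normalization they were at -0.02 and -0.06, against a median of -0.26 over all tested genes. Of 12 tested genes of the Wnt pathway that maintains the barrier, 1 rose and 0 fell (median 0.01). The riser was Axin2, a target of beta-catenin (0.23, adjusted P = 0.0282, limma, and -0.06 without normalization). Lef1 and Tcf7l2, transcription factors that act with beta-catenin, were counted in the thalamus list instead, where they rose by 0.86 and 1.20.

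Among 26 other endothelial genes 20 were tested, 1 rose and 3 fell (median -0.00). Itm2a, a membrane protein of brain endothelium, ran from 8.70 to 9.11 in CON and from 8.34 to 8.59 in LUN, without overlap, and fell by 0.36 (SE 0.06, adjusted P = 0.00108, limma). Mmrn2, an endothelial matrix glycoprotein, fell by 0.33 (SE 0.08, adjusted P = 0.0117, limma), and Ramp2, a co-receptor for adrenomedullin, by 0.26 (SE 0.06, adjusted P = 0.00826, limma). Eng, a co-receptor for TGF-beta, rose by 0.25 (SE 0.08, adjusted P = 0.0403, limma) with an adjusted P of 0.119 under median scaling. The level of this list ran from -0.07 to 0.11 in CON and from -0.11 to 0.11 in LUN, and the groups overlapped. Of the 8 rising genes named in these lists, with Lef1 and Tcf7l2 of the thalamus list left aside, Vegfc and Slco1a4 were also called under median scaling (adjusted P = 0.00177 and 0.0265, limma). Without normalization 0 were called. Plvap and Esm1, markers of fenestrated capillaries, differed by -0.03 and -0.12, and 0 of 2 passed (median -0.07).

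**Figure D4:**
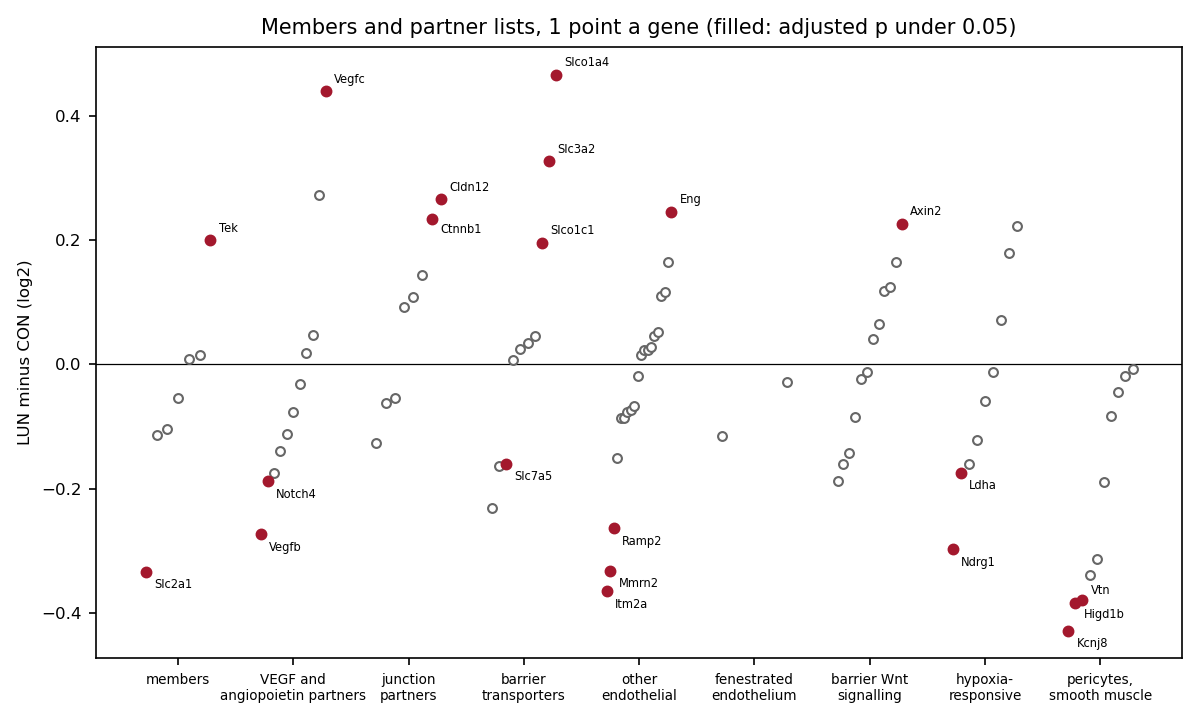
LUN minus CON (log2, y axis) of each tested gene of the 7 members and of 8 lists of partner and neighbouring genes (x axis), filled and named where the adjusted P was under 0.05. Filled points lie on both sides of 0 in the VEGF, transporter and other endothelial lists, and below 0 in the pericyte list.

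Of 15 genes of pericytes and smooth muscle 10 were tested, 0 rose and 3 fell (median -0.25), namely Kcnj8 by 0.43 (adjusted P = 0.0111, limma), Higd1b by 0.38 (adjusted P = 0.00245, limma) and Vtn by 0.38 (adjusted P = 0.000839, limma), all known from brain pericytes. Pdgfrb, the receptor that defines pericytes, differed by -0.08 (adjusted P = 0.627, limma). The level of this list was -0.02 to 0.31 in CON and -0.22 to 0.10 in LUN. Of 9 tested hypoxia-responsive genes 0 rose and 2 fell (median -0.06), Ndrg1 by 0.30 and Ldha by 0.17 (adjusted P = 0.00274 and 0.0315, limma).

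Markers of blood and meninges were lower in LUN. All 5 tested red cell genes fell (median -1.14), with differences of -1.25 for Slc4a1, -1.15 for Hba-a1 and -1.14 for Alas2 and with levels from -0.11 to 0.97 in CON and from -0.98 to 0.21 in LUN. Of 11 tested genes of meninges and fibroblasts 7 fell and 0 rose (median -0.45), with differences of -0.62 for Ogn and -0.53 for both Lum and Slc13a4 and with levels from -0.24 to 0.67 in CON and from -0.41 to -0.08 in LUN. No choroid plexus gene of 5 passed (median 0.03), although Ttr, the plexus protein transthyretin, differed by 1.52 (adjusted P = 0.269, limma). The choroid plexus level was 1.93 in LUN 7 and 0.81 in LUN 1, against -0.39 to 0.12 in the other LUN arrays and -0.64 to 0.38 in CON. The single tested pituitary gene, Cga, differed by -0.82 (adjusted P = 0.0514, limma). Of 6 microglial genes 1 rose, P2ry12 by 0.35, and 1 fell, C1qb by 0.40 (median -0.02). Of 5 oligodendrocyte genes Cnp and Mag fell, by 0.25 and 0.18 (median -0.16), and of 5 neuronal genes Stmn2 rose by 0.17 (median 0.10). Under median scaling neither P2ry12 (0.22, adjusted P = 0.0883, limma) nor Stmn2 (0.05, adjusted P = 0.488, limma) passed. The part of these cells and of blood left in the vessels in the endothelial values was not tested.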

How the data were processed

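RNA of each hypothalamus was labelled with biotin and read on 1 array, and groups were taken from the deposited labels. The authors deposited GenomeStudio intensities, averaged over the beads of a probe. These deposited intensity values had no background removed and no scaling between arrays, judged by their lowest signals, although the study's methods mention background subtraction in GenomeStudio. A detection p-value against negative controls was deposited beside each signal. A table of log2 values deposited by the authors, quantile-normalized in GeneSpring and centred on each probe's median, served as an alternative.

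The intensities were corrected and normalized here with the nec and quantile functions of limma 3.58.1 in R 4.3.3 (offset 16), and log2-transformed. Of 25697 probes 23978 carried 1 gene symbol, updated by Entrez ID, and 14870 were tested because 8 or more arrays had a detection p-value under 0.05. Differences were tested with lmFit and eBayes with group as the only term and Benjamini-Hochberg adjustment over all tested probes. The tested probe with the highest mean represented a gene. For untested probes a two-sided exact permutation test covered all 12870 splits of the arrays. Precision is limited by how many arrays there are.

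The genes and lists were chosen with earlier results of these data known. Named beside the 10 genes were up to 3 rising and 3 falling genes of each list, the brightest or a defining gene where none passed, and the 5 genes most like the members' mean. Pdgfrb, Abcb1b, Ttr, Lef1 and second probes were named after their values were seen. Alternatives were other detection filters, offsets and scalings, no background correction, the deposited values, a plain two-sample test, array weights, BeadChip and replicate blocks, single BeadChips, other probes, and arrays left out.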

Additional observations from a re-analysis of the deposited data

Results flagged for a closer look

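The level of the hypoxia-responsive genes in CON 5 stood apart from the other CON arrays, at -0.13 against -0.01 in the nearest array and 0.09 at the other end. It was the 1 result picked out among 54 groups of arrays examined, where chance alone picks about 1 group in 20. CON 5 also held the highest Flt1 value of the CON arrays, 10.07.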

How the results depend on the processing

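Slc2a1 stayed lower past the adjusted P in 29 of 31 alternatives and missed it on each BeadChip alone, and leaving out 1 array gave -0.37 to -0.29 (adjusted P 0.00429 to 0.0157, limma). Tek kept its call in 20 of 31 alternatives, ran from 0.17 to 0.23 with 1 array left out (adjusted P 0.0175 to 0.0649, limma) and turned to -0.082 without normalization between arrays. Median scaling called 3247 of all tested genes, 10.8% of them higher, no normalization 6280, 1.94% of them higher, against 1615 and 45.5%; both gave 0 endothelial genes higher and 4 lower. BeadChip 1 alone called 4 of all genes and BeadChip 2 alone 131, and each gave 0 endothelial genes in either direction. With 1 array left out, 1324 to 1862 genes were called, with 0 to 1 endothelial genes higher and 1 lower. Pecam1 was -0.081 under median scaling, -0.24 without normalization, -0.035 on BeadChip 1, -0.025 by its other probe and -0.026 to 0.047 with 1 array left out. Cdh5 was -0.13 without normalization, -0.18 on BeadChip 1, -0.0022 without CON 4 and CON 8 and -0.051 to 0.085 with 1 array left out. The cause of these shifts was not tested, other than that single BeadChips hold fewer arrays. Without CON 4 and CON 8, 2174 genes were called, 1494 of them shared with the 1615.

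Deviations of CON and LUN mice with the same replicate number correlated at -0.29 to 0.10. No strong shared deviation was thus seen, which cannot show whether the mice were paired. With the replicate block 1208 genes were called, and endothelial counts remained at 1 higher and 1 lower. Dim probes (Cdh5, Kdr, Abcb1a) limit what the arrays can show.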
